A study of Mus musculus with 12 samples.

Results

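The genes described here encode the cytoplasmic translation initiation factors (eIF1 to eIF6) and the elongation factor eEF1, with a few genes that share their names. Membership went by symbol alone, but the family was chosen with earlier results of these data known. Names that begin with Eif1 to Eif6 or with Eef1 or Eef2 followed by a, b, d or g were taken. The Eif2ak kinases, *Eif4enif1* and names of pseudogenes marked -ps were left out. Of 35976 gene symbols, 57 were members, and they fell into 13 groups by the complex they belong to. RNA-seq was done on embryonic testis at E15.5 of outbred Swiss (RjOrl) mice in 4 groups of 3 libraries. In F1, pregnant females were gavaged daily between E6.5 and E15.5 with 6 mg/kg/day of *thia*, the neonicotinoid insecticide thiacloprid (F1 thia), or with vehicle at a dose of 0 (F1 control), and their male embryos were taken at the end of dosing. In F3, the embryos descended from such dosed or vehicle females through F1 and F2 males mated with unrelated untreated females (F3 thia and F3 control), so that no dose was given in their own pregnancy. Each library held RNA pooled from the testes of 3 embryos, and the stock is outbred, so 1 library is not 1 animal and carries no fixed genotype.

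Initiation begins when eIF2, with GTP and the initiator tRNA, joins eIF1, eIF1A, eIF3 and eIF5 on the small ribosomal subunit. The cap-binding factor eIF4E, the scaffold eIF4G and the helicase eIF4A bring this complex to the 5' end of an mRNA, eIF5B joins the large subunit, and eIF2B reloads eIF2 with GTP. In elongation, eEF1A carries each aminoacyl-tRNA to the ribosome and the eEF1B subunits reload eEF1A. The embryonic testis holds Sertoli cells, germ cells, Leydig cells, other interstitial cells and blood, and bulk RNA cannot tell fewer cells of a type from less RNA per cell.

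The libraries held 25081647 to 68996146 counts, so 1 CPM (a count scaled to library depth, here by TMM) stood for 25 to 69 counts. All 9 Sertoli, 9 germ cell and 6 Leydig cell markers were detected. F3 thia replicate 2 stood apart, with a chi-square per degree of freedom of 90.7 and 101 against its group mates, which gave 36.2 between themselves. The summed level of 9 blood genes was 5223 to 15449.8 CPM in F1 control, 7867 to 19022 in F1 thia, 62014 to 66777 in F3 control and 45152 to 82354 in F3 thia, so that both F3 groups lay above both F1 groups. The 6 Leydig genes summed to 2191 to 3621 CPM in F3 control and 3842 to 6971 in F3 thia, without overlap, and the 9 germ cell genes to 702 to 1087 and 437 to 825 CPM. The labels name no sequencing batch, and a step done apart for F1 and F3 cannot be told apart from the generation.

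Together the members took 2.92 to 3.08% of all counts in F1 control, 2.99 to 3.26% in F1 thia, 3.61 to 4.03% in F3 control and 3.13 to 3.47% in F3 thia. Most of it was *Eef1a1*, the main form of eEF1A, which ranked between 1 and 3 among all genes in every library. On the CPM scale, 3 members averaged over 1000, 32 lay between 100 and 1000, 18 between 10 and 100 and 4 under 10. Levels of different genes were compared per kilobase of the longest transcript. On that scale in F1 control, *Eef1a1* held 8642 CPM per kilobase, *Eef1g* 561, *Eif5a* 431, *Eif3h* 427, *Eif4a1* 388 and *Eef1b2* 377. The next member, *Eif3k*, was at 248 CPM per kilobase.

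Paralogs differed widely on the same scale. *Eef1a2*, the eEF1A form of muscle and neurons, was at 1.78 CPM per kilobase in F1 control against 8642 for *Eef1a1*. *Eif5a2* was at 6.46 against 431 for *Eif5a*, the elongation factor that carries hypusine. Among the cap-binding proteins *Eif4e2*, a repressor that binds the cap without eIF4G, was at 32.7 and *Eif4e* at 32.3, *Eif4e3* at 4.36 and *Eif4e1b*, known from oocytes, at 0.066 CPM per kilobase. *Eif4e1b* had 2 to 15 counts per library and was filtered out of the tests within a generation, which left 56 tested members. Of the 2 genes for the eIF2 gamma subunit, X-linked *Eif2s3x* held 1.65, 1.31 and 1.45 times the CPM of Y-linked *Eif2s3y* in the F1 control libraries, but per kilobase the order turned, at 27 for *Eif2s3x* and 36.7 CPM per kilobase for *Eif2s3y*. Counts of some members may hold reads of near copies. The share of 100-base words of the longest transcript that also occur in another gene was 84% in *Eif3j2* (with *Eif3j1*), 62.8% in *Eif4ebp3*, 60.8% in *Eif4a1*, 49.4% in *Eef1g*, 36% in *Eif3j1*, 35.3% in *Eif2s3x* and 26.7% in *Eef1a1*. It was 19.2% in *Eif1* and 18.8% in *Eif2s2*, and some other members had smaller shares. How reads that match several genes were counted is not given, so these levels are uncertain by an unknown amount.

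Many mRNAs for translation proteins begin with a C followed by pyrimidines, a 5' terminal oligopyrimidine tract (TOP). The starts of members the F3 comparison turns on are therefore shown. RefSeq (GRCm38.p6) held promoters for 42 members, and each line gives 30 bases, 15 on each side of the annotated start, 5' to 3' on the strand of the gene. Capitals mark the longest run of a C followed by at least 5 pyrimidines (C or T) within the 10 bases on each side of the start. Only the sense strand was searched. Runs were cut at the edge of these bases, so in *Eif2b5* the pyrimidines go on upstream of the capitals. A run with too few bases inside the edge, as in *Eif2b2*, was not counted.
Eef1a1 (chr9:78481710-78481739, minus strand): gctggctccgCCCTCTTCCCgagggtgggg
Eif3f (chr7:108934400-108934429, plus strand): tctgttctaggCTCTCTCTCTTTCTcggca
Eif3l (chr15:79075208-79075237, plus strand): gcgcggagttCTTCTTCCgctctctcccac
Eif2b5 (chr16:20498802-20498831, plus strand): ccttcCTCTTTCTCTCCCTgcaactacacc
Eif4g1 (chr16:20672712-20672741, plus strand): cgccagcgcagctccgCCCTCTgcgccggt
Eef1b2 (chr1:63176816-63176845, plus strand): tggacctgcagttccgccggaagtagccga
Eif3g (chr9:20898576-20898605, minus strand): tctttacccgggctgggagctgcgtggagt
Eif3m (chr2:105017013-105017042, minus strand): ttttccggtcggcgtgtttctggatcggag
Eif1b (chr9:120492591-120492620, plus strand): gcggcgcgcggggctaaatacgcggcgccg
Eif3a (chr19:60790679-60790708, minus strand): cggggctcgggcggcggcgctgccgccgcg
Eif4g3 (chr4:137993440-137993469, plus strand): aaagctccgagcggccgtcctgccggactg
Such a tract stood at a start of 9 of the 42 members (21.4%) and of 4700 of 27025 genes (17.4%). The 9 were *Eef1a1*, *Eif3f*, *Eif3l*, *Eif2b5*, *Eif4g1*, *Eif4e*, *Eif2s3x*, *Eif2s3y* and *Eif2c5*. They include genes whose F3 thia level was below and genes whose level was above the control. The median F3 log2 fold change was -0.18 over these 9 and -0.18 over the 33 members without a tract. An annotated start can lie several bases from the one used in testis, so a window without capitals says nothing of the transcript itself.

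Direct exposure was examined first, in F1 thia against F1 control. No member passed the FDR of 0.15 that was set for F1 in edgeR's quasi-likelihood test, where 1 gene rose and 1 fell among 19137 tested (0.00523% in each direction). The members' median log2 fold change was 0.02, and 26 of 56 lay below 0 against 48.0% of all genes. At an unadjusted p under 0.05, 1 member was higher and 2 were lower, where the backgrounds were 4.63% and 4.13%. The groups did not overlap for 1 higher and 6 lower members (backgrounds 6.55% and 8.45%).

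The 3 members with the smallest p in F1 were *Eif2s3y*, *Eef1a2* and *Eif5a2*, each of which has a close paralog. *Eif2s3y*, the Y-linked eIF2 gamma gene that spermatogonia need to proliferate, read 57.3, 68.3 and 76.5 CPM in F1 control and 46.3, 54.5 and 47.3 in F1 thia. All 3 thia libraries lay below all 3 controls, at a log2 fold change of -0.43 ± 0.12, FDR = 0.446. The Wald test of DESeq2 called it at an adjusted p of 0.103, as it called 0.525% of genes lower. Of the 9 germ cell markers, 8 were below 0 in the same contrast and 6 lower at an unadjusted p under 0.05, at a median of -0.38, and their summed level was 1158 to 1534 CPM in F1 control and 956 to 1187 in F1 thia. Their part in the *Eif2s3y* value was not tested. Its X-linked partner *Eif2s3x* read 94.3, 89.5 and 111 CPM in F1 control and 87.8, 97.4 and 87.7 in F1 thia with overlapping groups (-0.10 ± 0.10). *Eef1a2* read 3.73, 4.15 and 3.23 CPM in F1 control and 5.43, 5.21 and 5.89 in F1 thia, again without overlap (0.58 ± 0.16, FDR = 0.455). The muscle list moved with this contrast in part, since 12 skeletal muscle genes summed to 52.1 to 123 CPM in F1 control and to 90.1, 654 and 69.3 in F1 thia, and its part in the *Eef1a2* value was not tested. *Eif5a2* read 27.9, 30.2 and 39.3 CPM in F1 control and 25.4, 25.5 and 25.3 in F1 thia (-0.33 ± 0.13, FDR = 0.532).

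By complex, the eEF1 genes were all above 0 in F1, from 0.10 to 0.58. The 4 eIF2 genes were all below 0, from -0.43 to -0.10. Of 14 eIF3 genes, 5 lay below 0, at a median of 0.05. None of these passed the test except as given above for DESeq2.

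The same genes were then examined 2 generations later, in F3 thia against F3 control. No gene at all passed the FDR of 0.1 set for F3 in edgeR (0.0% of 18539 in either direction), where the smallest FDR was 0.101, and 0 members were called. Nevertheless, 50 of the 56 tested members had a log2 fold change below 0, against 49.4% of all genes, and their median was -0.18 where that of all genes was 0.00. At an unadjusted p under 0.05, 25 members were lower and 3 higher, against backgrounds of 10.0% and 11.0%. All 3 thia libraries lay below all 3 controls for 27 members and above them for 3 (backgrounds 13.9% and 13.4%). In the same contrast 4 of 9 germ cell markers were lower and 0 higher at an unadjusted p under 0.05 (median -0.48), 3 of 9 blood markers lower and 0 higher (median -0.18), and 3 of 6 Leydig, 5 of 7 interstitial and endothelial and 3 of 9 Sertoli cell markers higher and 0 lower. Their part in the members' values was not tested. The members act in one pathway and were measured in the same libraries, so they are not independent readings. The authors had already related genes down-regulated in these F3 libraries to translation, so the lower values here are no separate finding.

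Whether any member passed depended on the fit. The Wald test of DESeq2 called 10 members lower and 1 higher (backgrounds 5.7% and 9.17%). One edgeR fit of all 12 libraries called 11 lower and 1 higher (backgrounds 3.99% and 5.87%). Both called 8 of the lower members, *Eef1a1*, *Eef1b2*, *Eif1a*, *Eif1b*, *Eif3e*, *Eif3g*, *Eif3h* and *Eif3m*, and both called *Eif4g3* higher. Without F3 thia replicate 2, the library that stood apart, edgeR called 6 lower members (background 2.59%). These were *Eef1b2*, *Eif1a*, *Eif3e*, *Eif3h*, *Eif3m* and *Eif6*. Upper quartile scaling called 3 members lower (background 1.68%), a fit with no filter on low counts 2 (background 0.661%) and a minimum of 10 counts in every library 2 (background 1.06%). Leaving out F3 control replicate 1 reduced the members lower at an unadjusted p under 0.05 from 25 to 14 and those higher from 3 to 0, and leaving out F3 thia replicate 3 reduced the lower ones to 15.

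**Figure D1:**
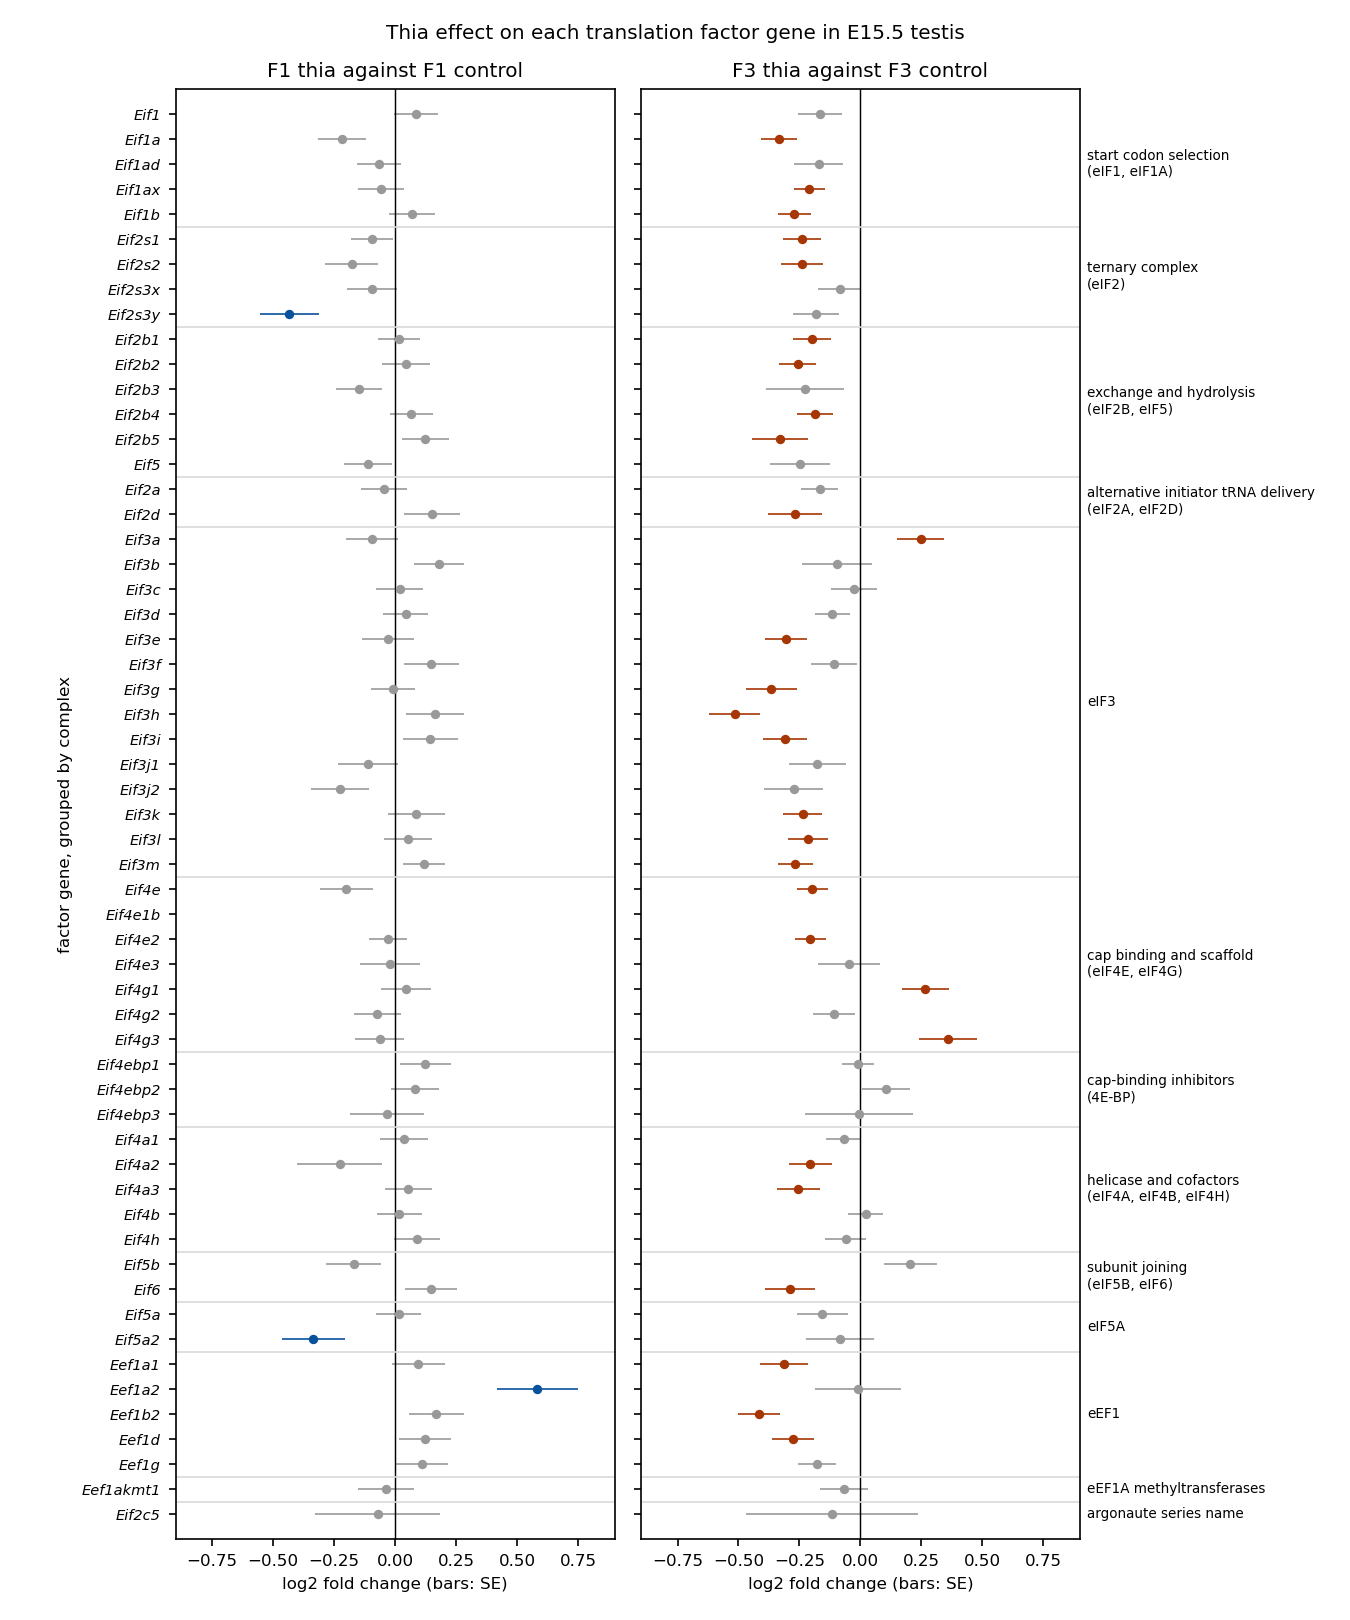
Log2 fold change (x axis) with its SE of each tested member, grouped by complex, in F1 (left) and F3 (right), with an unadjusted p under 0.05 in colour and no point for *Eif4e1b*, which was not tested. In F1 3 members are coloured, whereas in F3 28 are, of which 25 lie left of 0, and *Eif3a*, *Eif4g1* and *Eif4g3* lie right of it.

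Among elongation factors, 4 of the 5 eEF1 genes were lower in F3 thia without overlap and 3 of them at an unadjusted p under 0.05. Over all genes, 49.4% lay below 0, 13.9% were lower without overlap and 10.0% lower at that p. These are the backgrounds for each complex below. *Eef1b2* (chr1:63176825-63180486, plus strand, GRCm38), which encodes the exchange subunit eEF1B alpha, read 1512, 1301 and 1369 CPM in F3 control and 1055, 1068 and 1015 in F3 thia. The lowest control exceeded the highest thia library, and the log2 fold change was -0.42 ± 0.08, FDR = 0.105. DESeq2 gave an adjusted p of 0.0027. *Eef1a1* (chr9:78478449-78489151, minus strand) read 27996, 25299.9 and 23649.6 CPM in F3 control and 21259, 20466 and 20310.4 in F3 thia. Its thia libraries lay within a narrow band below every control (-0.31 ± 0.10, FDR = 0.149, DESeq2 adjusted p = 0.037). *Eef1d*, the eEF1B delta subunit, differed by -0.28 ± 0.09, FDR = 0.147 (DESeq2 adjusted p = 0.087). *Eef1g*, the eEF1B gamma subunit, read 1479.9, 1372 and 1325 CPM in F3 control and 1266, 1195 and 1234 in F3 thia and missed the unadjusted threshold (-0.18 ± 0.08, FDR = 0.244). *Eef1a2* did not differ beyond its spread, at 4.40, 4.48 and 3.35 CPM in F3 control and 4.32, 4.0 and 3.82 in F3 thia (-0.01 ± 0.18).

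**Figure D2:**
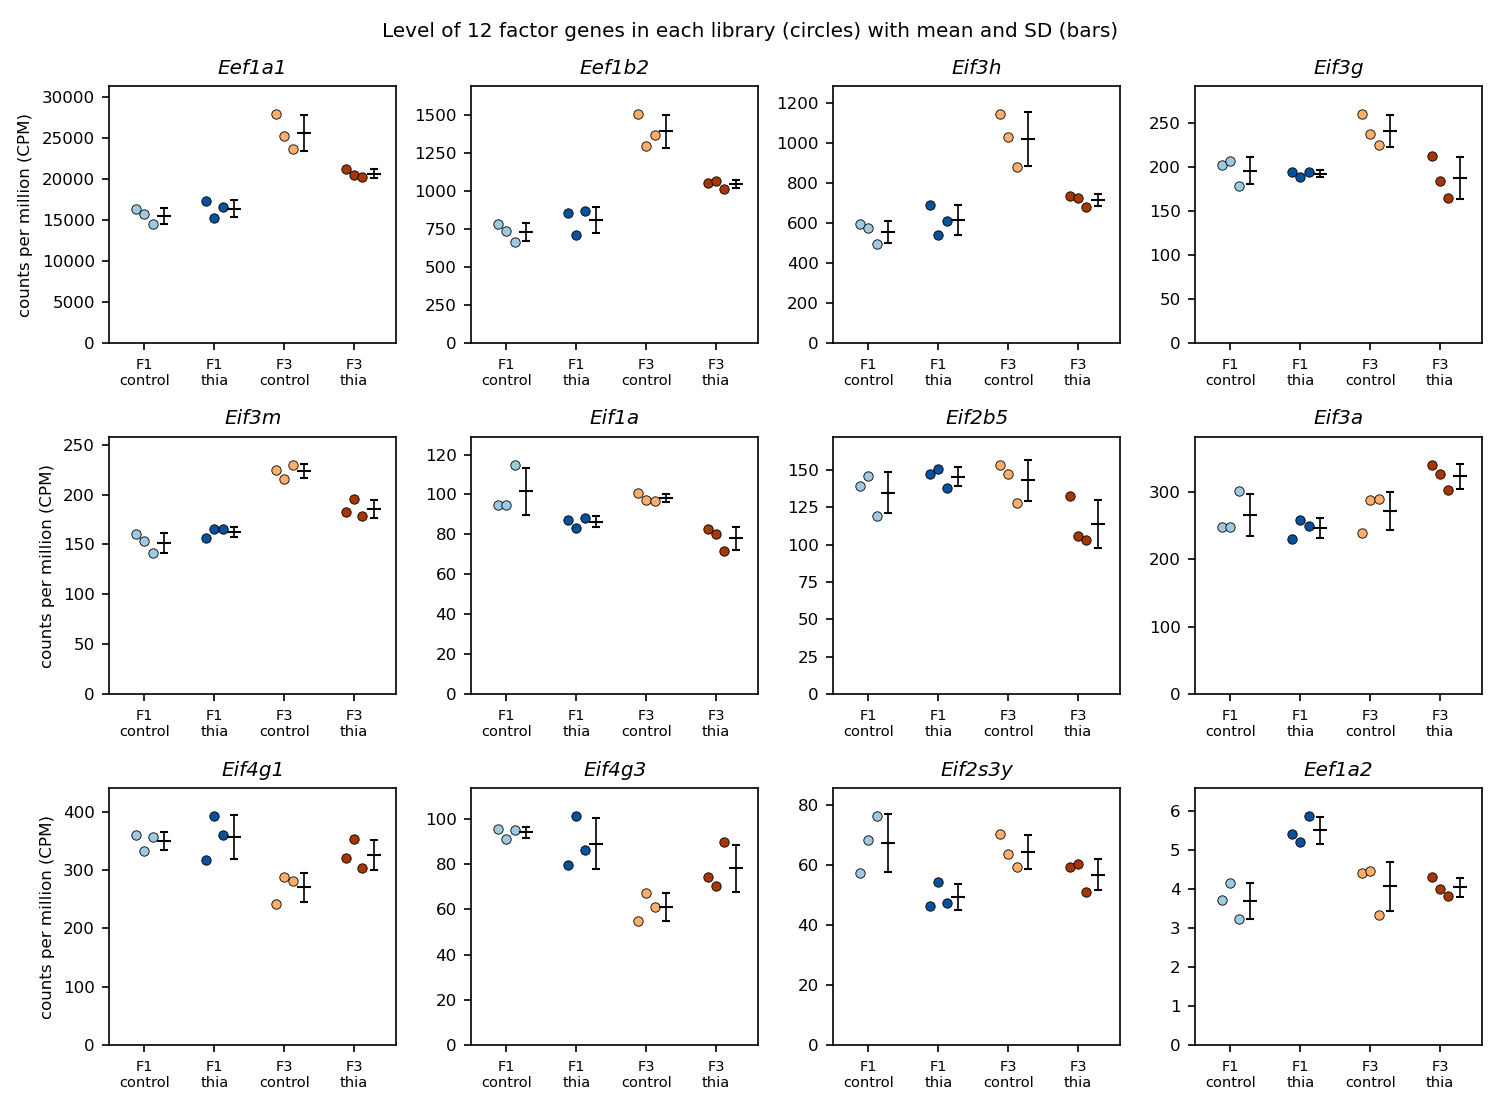
CPM (y axis, from 0) of 12 members in each of 3 libraries per group (circles, replicates 1 to 3 from left to right), with the mean and SD as bars. *Eef1a1*, *Eef1b2*, *Eif3h*, *Eif3g*, *Eif3m* and *Eif1a* are below every F3 control in all 3 F3 thia libraries, *Eif3a*, *Eif4g1* and *Eif4g3* are above every F3 control, and *Eif2s3y* and *Eef1a2* are separated in F1.

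The eIF3 complex, which holds the small subunit and binds eIF4G, had 13 of 14 genes below 0 in F3, at a median of -0.23. Of these, 7 were lower at an unadjusted p under 0.05, and 1 gene, *Eif3a*, was higher. *Eif3h* (chr15:51786558-51865523, minus strand), a subunit outside the core that budding yeast uses, showed the largest difference of all members. It read 1145, 1028 and 880.5 CPM in F3 control and 733, 725 and 679 in F3 thia. The 3 thia libraries were close to each other and below every control, at a log2 fold change of -0.52 ± 0.10, FDR = 0.105 and a DESeq2 adjusted p of 0.0023. *Eif3h* shares 11.8% of its 100-base words with a pseudogene.

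*Eif3g*, an RNA-binding subunit that contacts the mRNA entry channel, read 261, 237 and 225 CPM in F3 control and 213, 184 and 165 in F3 thia (-0.37 ± 0.11, FDR = 0.134). The control with the lowest level stood above the highest thia library by a small margin. *Eif3e*, *Eif3i* and *Eif3m* differed by -0.31 ± 0.09, -0.31 ± 0.09 and -0.27 ± 0.07, with FDR values of 0.132, 0.136 and 0.124. DESeq2 called all 3, at adjusted p-values of 0.055, 0.065 and 0.054. *Eif3k* and *Eif3l*, the pair of subunits that bind each other, differed by -0.24 ± 0.08 and -0.22 ± 0.08.

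*Eif3a* (chr19:60761117-60790658, minus strand), the large scaffold subunit, read 239.8, 289 and 289 CPM in F3 control and 341, 326 and 304 in F3 thia. All thia libraries exceeded all controls (0.25 ± 0.10, FDR = 0.207), and the nearest values were 289 and 304. Of the other core subunits, *Eif3b* and *Eif3c* overlapped between the groups, at -0.10 ± 0.14 and -0.03 ± 0.09. The core subunits *Eif3g* and *Eif3i* were lower, as given above. *Eif3j1* and *Eif3j2*, whose counts may mix as given above, differed by -0.18 ± 0.12 and -0.27 ± 0.12. The remaining subunits, *Eif3d* and *Eif3f*, differed by -0.12 ± 0.07 and -0.11 ± 0.09.

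Per kilobase of transcript, the eIF3 subunit genes were not level with each other. In F3 control they ranged from 11.4 CPM per kilobase (*Eif3j1*) to 786 (*Eif3h*), and *Eif3h* led in all 4 groups. In F3 thia *Eif3h* was at 550.1, still above the next subunit *Eif3k* at 252. *Eif3a* held 53.2 CPM per kilobase in F3 control and 63.2 in F3 thia. The 10 subunits from *Eif3k* down to *Eif3c* in the F3 control order lay between 94.1 and 297, and the ranges of neighbours such as *Eif3i* and *Eif3e* overlapped.

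**Figure D3:**
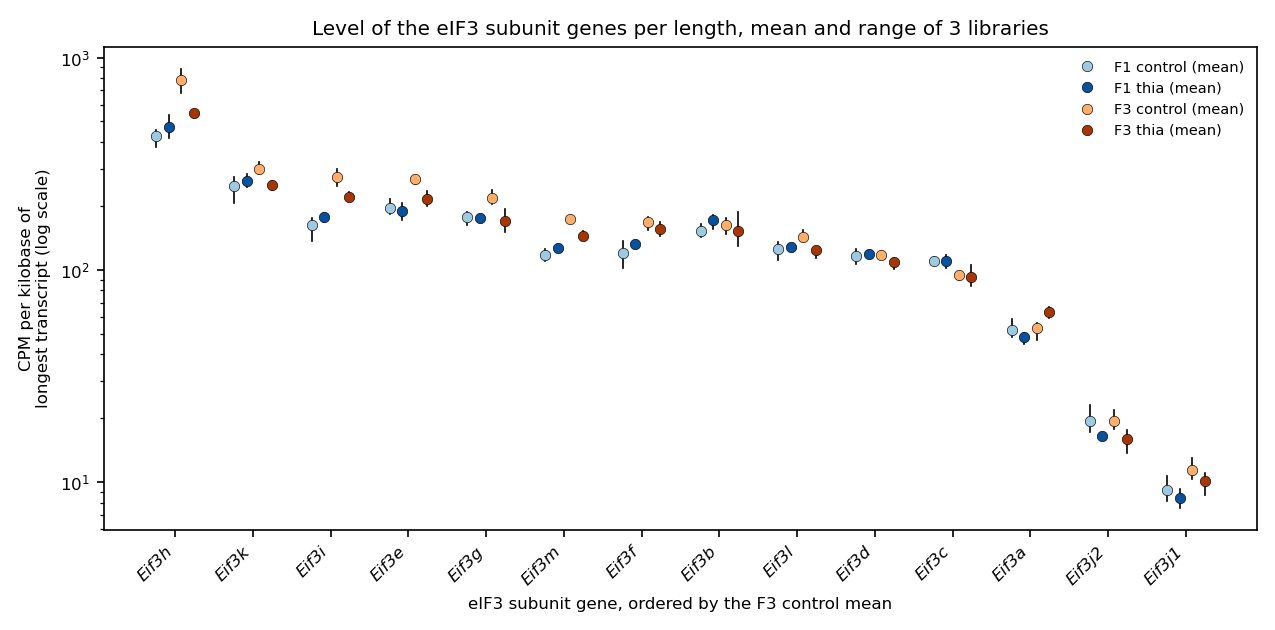
Level of the 14 eIF3 subunit genes in CPM per kilobase of the longest transcript (y axis, log scale), as the mean (circle) and range (line) of 3 libraries in each group. *Eif3h* is highest in every group, *Eif3a* and both *Eif3j* genes are lowest, and *Eif3a* is the 1 subunit whose F3 thia mean lies above the F3 control mean.

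All 5 genes grouped under start codon selection, with *Eif1ad* counted among them, were below 0 in F3. Of these, 3 were lower at an unadjusted p under 0.05. *Eif1a*, an autosomal gene for eIF1A, the factor that keeps the small subunit open for scanning, read 100.5, 97.1 and 96.9 CPM in F3 control and 82.7, 79.9 and 71.5 in F3 thia. The controls lay close together and above every thia library (-0.33 ± 0.07, FDR = 0.105, DESeq2 adjusted p = 0.023). Its X-linked paralog *Eif1ax* read 194, 186 and 183 CPM in F3 control and 165, 162 and 160.3 in F3 thia, also without overlap (-0.21 ± 0.06, FDR = 0.139). *Eif1b* differed by -0.27 ± 0.07, FDR = 0.117, whereas *Eif1*, the more abundant form of the same start codon gatekeeper, differed by -0.17 ± 0.09 with overlapping groups (408, 387 and 427 against 346, 401 and 343 CPM).

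All 4 eIF2 genes were below 0 in F3, and 2 were lower at an unadjusted p under 0.05. *Eif2s1*, the alpha subunit phosphorylated under stress, read 161, 167 and 157 CPM in F3 control and 138, 147 and 126 in F3 thia (-0.24 ± 0.08, FDR = 0.153). *Eif2s2*, the beta subunit, differed by -0.24 ± 0.09, FDR = 0.177. For both, the groups did not overlap. *Eif2s3x* and *Eif2s3y* differed by -0.09 ± 0.09 and -0.18 ± 0.10, with overlap in both.

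All 6 genes of the factors that act on the eIF2 nucleotide were below 0, and 4 were lower at an unadjusted p under 0.05. *Eif2b5*, the catalytic subunit of eIF2B, read 154, 148 and 128 CPM in F3 control and 133, 106 and 103 in F3 thia. Here 1 thia library reached into the range of the controls (-0.33 ± 0.12, FDR = 0.171). *Eif2b2*, a regulatory subunit, read 59.6, 52.4 and 54.4 CPM in F3 control and 47.3, 46.6 and 45.5 in F3 thia with no overlap (-0.26 ± 0.07, FDR = 0.134). *Eif2b1* and *Eif2b4* differed by -0.20 ± 0.08 and -0.19 ± 0.07, and *Eif2b3* by -0.23 ± 0.16 with overlap. *Eif5*, which triggers GTP hydrolysis by eIF2 and was the most abundant of the 6 on the CPM scale, read 434, 425 and 408 CPM in F3 control and 373, 407 and 289 in F3 thia (-0.25 ± 0.12, FDR = 0.299). *Eif2a* and *Eif2d*, alternative carriers of initiator tRNA, differed by -0.17 ± 0.08 and -0.27 ± 0.11.

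The cap-binding and scaffold genes went in both directions. *Eif4g1* (chr16:20668313-20692884, plus strand), the main scaffold, read 242, 289 and 281 CPM in F3 control and 320.0, 353 and 304 in F3 thia. Every thia library exceeded every control (0.27 ± 0.10, FDR = 0.183). *Eif4g3* (chr4:137993022-138208508, plus strand), a scaffold paralog that male meiosis requires, read 54.8, 67.3 and 60.8 CPM in F3 control and 74.3, 70.3 and 89.7 in F3 thia. Its groups were also separate (0.36 ± 0.12, FDR = 0.161), and DESeq2 called it higher at an adjusted p of 0.070. *Eif4g2*, the most abundant scaffold gene, which lacks the eIF4E-binding site, read 1296, 1367 and 1342 CPM in F3 control and 1275, 1317 and 1125 in F3 thia and overlapped (-0.11 ± 0.08). *Eif4e* and *Eif4e2* were lower without overlap, at -0.20 ± 0.06, FDR = 0.154 for *Eif4e* and -0.21 ± 0.06, FDR = 0.149 for *Eif4e2*. *Eif4e3* differed by -0.05 ± 0.13.

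The eIF4E-binding proteins, which block eIF4E when mTOR is inactive, showed no member at an unadjusted p under 0.05. *Eif4ebp1* read 64.6, 65.1 and 63.4 CPM in F3 control and 61, 65.3 and 65.7 in F3 thia (-0.01 ± 0.07), *Eif4ebp2* differed by 0.10 ± 0.10 and *Eif4ebp3* by -0.01 ± 0.22. Among the helicase genes, *Eif4a1* was the most abundant and differed by -0.07 ± 0.07, its paralog *Eif4a2* by -0.21 ± 0.09, FDR = 0.237. *Eif4a3*, which belongs to the exon junction complex rather than to cap-dependent initiation, read 223, 207 and 192 CPM in F3 control and 190.2, 169.6 and 161 in F3 thia (-0.26 ± 0.09, FDR = 0.168). The cofactors *Eif4b* and *Eif4h* differed by 0.02 ± 0.07 and -0.06 ± 0.08, with overlapping groups.

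Of the joining factors, the GTPase gene *Eif5b* was above the controls on average, at 98.1, 121 and 119 CPM in F3 control and 145, 121 and 124 in F3 thia (0.20 ± 0.11, FDR = 0.332). *Eif6*, which keeps the large subunit apart, was lower in all 3 thia libraries (157, 138 and 137 against 109.6, 134 and 111 CPM, -0.29 ± 0.10, FDR = 0.174). *Eif5a* and *Eif5a2* differed by -0.16 ± 0.11 and -0.08 ± 0.14, both with overlap. *Eef1akmt1*, a lysine methyltransferase of eEF1A, differed by -0.07 ± 0.10. *Eif2c5*, whose symbol comes from an older name for argonaute proteins and which is no initiation factor, had 14 to 56 counts per library and differed by -0.12 ± 0.35.

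The difference in F3 was related to the length of the transcript, both among members and among all genes. The 23 members whose longest transcript is under 2000 bases were all below 0 at a median of -0.24, and all genes of that length had a median of -0.12. The 25 members of 2000 to 5000 bases, 24 of them tested, had a median of -0.20 where all genes had 0.01. The 9 members of 5000 bases or more had a median of 0.10, against 0.16 for all genes. *Eif3a* (5125 bases), *Eif4g1* (5638), *Eif5b* (7797) and *Eif4g3* (8134) are all in this class, while *Eif4g2* (7995) and *Eif1ax* (5172) are in it too and were below 0. The Spearman coefficient between length and log2 fold change was 0.39 across the 56 members and 0.33 across all genes tested with a length, where genes share the same 6 libraries.

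The trend of level over length was then taken out of each library as an offset, for genes with a length, and the model was refitted. In that fit 17 members were lower at an unadjusted p under 0.05 and 0 higher (backgrounds 9.68% and 8.13%), and the members' median was -0.14. *Eef1b2* was then at -0.35, *Eif3h* at -0.39, *Eef1a1* at -0.24 and *Eif1a* at -0.33. *Eif3a*, *Eif4g1* and *Eif4g3* were at 0.13, 0.13 and 0.15. All 25 lower and all 3 higher members kept their direction, and 14 of the 25 and 0 of the 3 were again past an unadjusted p of 0.05.

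**Figure D4:**
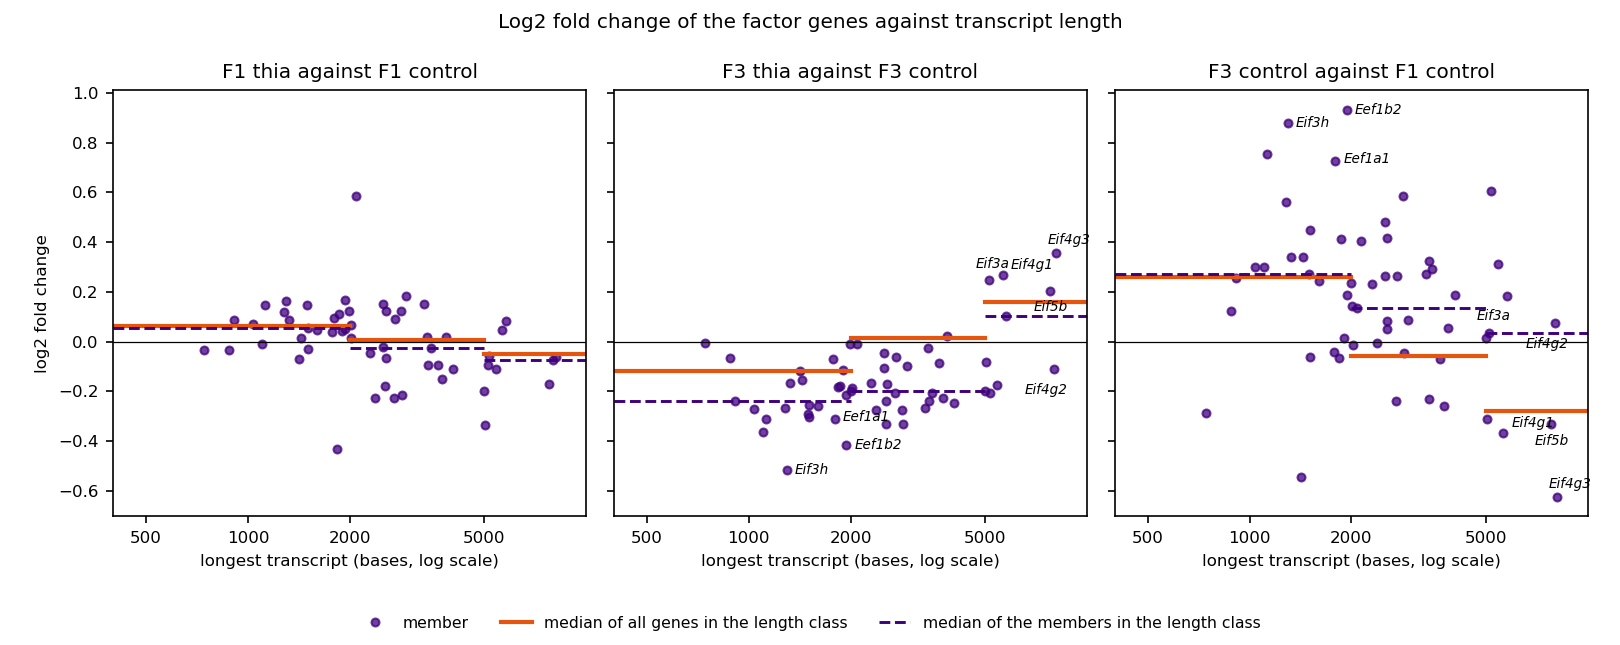
Log2 fold change (y axis) of the members (circles) against the length of the longest transcript (x axis, log scale) in 3 comparisons, with the median of all genes (orange line) and of the members (dashed line) in each of 3 length classes. In F3 the members' medians of the 2 shorter classes lie below those of all genes, and the 3 highest circles are *Eif4g3*, *Eif4g1* and *Eif3a*.

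Of 10 genes known for a TOP tract that were listed by hand, 8 are members. In F3, 7 of these 8 were below 0 at a median of -0.29, against 49.4% of all genes. *Eif4b* was the exception at 0.02 ± 0.07. At an unadjusted p under 0.05, 5 were lower (*Eef1a1*, *Eef1b2*, *Eef1d*, *Eif3e* and *Eif3h*), against 10.0% of all genes. The other genes on that list, *Eef2* and *Pabpc1*, which are no members, differed by -0.02 ± 0.10 and 0.13 ± 0.14, so the TOP list did not move as 1 block.

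Whether the effect of *thia* differed between generations was tested as an interaction in all 12 libraries. No member passed an FDR of 0.1, at which 0 genes were higher and 1 was lower (0.0% and 0.0051%). Of the 57 members, 45 had a lower effect in F3 than in F1, against 47.8% of all genes, at a median of -0.13, and at an unadjusted p under 0.05 15 were lower and 3 higher (backgrounds 6.1% and 7.93%). The members with the smallest p were *Eef1b2* (-0.57 ± 0.14, FDR = 0.248), *Eif3h* (-0.66 ± 0.17, FDR = 0.248) and *Eif3m* (-0.37 ± 0.10, FDR = 0.248). DESeq2 called these 3 and *Eef1a1* at an FDR of 0.1, where it called 1.89% of genes lower. In F1 the same genes were at 0.17 ± 0.11 (*Eef1b2*), 0.16 ± 0.12 (*Eif3h*) and 0.12 ± 0.09 (*Eif3m*), each with overlapping groups. The interaction went with length too, at a Spearman coefficient of 0.52 across the members and 0.38 across all genes with a length. Both the 9 members and all genes of 5000 bases or more had a median of 0.24. With the length trend removed, 11 members were lower and 0 higher at an unadjusted p under 0.05, where 984 genes were lower and 868 higher among 19626.

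The controls themselves differed between generations. In F3 control against F1 control 24 members rose and 4 fell at an FDR of 0.1, where 19.9% of all genes rose and 22.4% fell. The members' median was 0.19 where that of all genes was -0.02, and 16 of 57 lay below 0 against 51.4% of all genes. This contrast uses the same F3 control libraries as the F3 comparison, so a high F3 control moves both, in opposite directions, and the values are given side by side only.

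The largest rises were in eEF1 and eIF3. *Eef1b2* read 784, 742 and 665 CPM in F1 control against 1512, 1301 and 1369 in F3 control and rose by 0.93 ± 0.10, FDR = 0.00013. *Eif3h* read 593, 575 and 492 CPM in F1 control against 1145, 1028 and 880.5 and rose by 0.88 ± 0.12, FDR = 0.00035. For both, F3 thia lay between, at 1046 ± 27.7 CPM (SD, n = 3) for *Eef1b2* and 712 ± 29 for *Eif3h*. *Eef1a1* rose by 0.73 ± 0.10, FDR = 0.00032, from 15504 ± 927 to 25649 ± 2194 CPM, with F3 thia at 20678 ± 509 CPM. *Eif3i* rose by 0.75 ± 0.11, *Eif1ax* by 0.61 ± 0.08, *Eef1d* by 0.59 ± 0.10 and *Eif3m* by 0.56 ± 0.07.

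By complex, 4 of 5 eEF1 genes rose (*Eef1g* by 0.41 ± 0.09 beside those named), and 8 of 14 eIF3 genes. These were *Eif3e*, *Eif3f*, *Eif3g*, *Eif3h*, *Eif3i*, *Eif3j1*, *Eif3k* and *Eif3m*, while *Eif3c* fell by 0.23 ± 0.09. In start codon selection *Eif1* (0.34 ± 0.08), *Eif1b* (0.30 ± 0.08) and *Eif1ax* rose and *Eif1a* did not pass (-0.05 ± 0.09). Of eIF2 and the factors that act on it, *Eif2s1* rose by 0.32 ± 0.08, *Eif2s2* by 0.42 ± 0.10 and *Eif2b2* by 0.24 ± 0.08. *Eif2a*, *Eif4e2*, *Eif4h*, *Eif4ebp1*, *Eif5a* and *Eif6* rose by 0.23, 0.29, 0.26, 0.24, 0.34 and 0.27. *Eif4g3* fell by 0.62 ± 0.11, *Eif4g1* by 0.37 ± 0.10 and *Eif5b* by 0.33 ± 0.12.

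Length bore on these calls too. With the length trend removed, 21 members rose and 6 fell (backgrounds 17.9% and 19.3%), of which 14 of the 24 rises and 1 of the 4 falls were shared with the result above, and the median was 0.07. *Eif3k*, *Eif3g* and *Eif1b* then changed sign. Of the 9 blood genes, 7 were higher in F3 control at an unadjusted p under 0.05 and 0 lower, at a median of 2.35, where 20.8% of all genes were higher and 23.3% lower. Other marker lists moved too, with 5 of 9 germ cell genes (median -0.97), 5 of 9 Sertoli cell genes (median -0.65) and 5 of 7 interstitial and endothelial genes (median -0.27) lower at that threshold. Of 12 skeletal muscle genes 4 were higher (median 1.70), and of 5 ovary genes 3 (median 1.03). The part of these cell types in this comparison was not tested. Under upper quartile scaling all 24 rises were called again, with 6 more, and 2 of the 4 falls.

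As complexes, summarised by the geometric mean of CPM over their genes, eEF1 stood at 429, 422 and 361 in the F1 control libraries, 474, 434 and 487 in F1 thia, 642, 585 and 558 in F3 control and 523, 505 and 489 in F3 thia. Every F3 control library exceeded every F3 thia library, and both F3 groups exceeded F1 control. For eIF3 the values were 213, 214 and 203 in F1 control, 212, 209.9 and 217 in F1 thia, 267, 254 and 250.3 in F3 control and 236, 229.8 and 208 in F3 thia. F3 thia lay below F3 control without overlap and reached into the range of the F1 groups. Cap binding and scaffold genes read 131, 140.4 and 139 in F3 control and 136, 144 and 134 in F3 thia, and the groups overlapped. The exchange and hydrolysis factors read 83.3, 79.2 and 77 in F3 control and 74.4, 67.5 and 60.7 in F3 thia, with every thia library below every control.

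**Figure D5:**
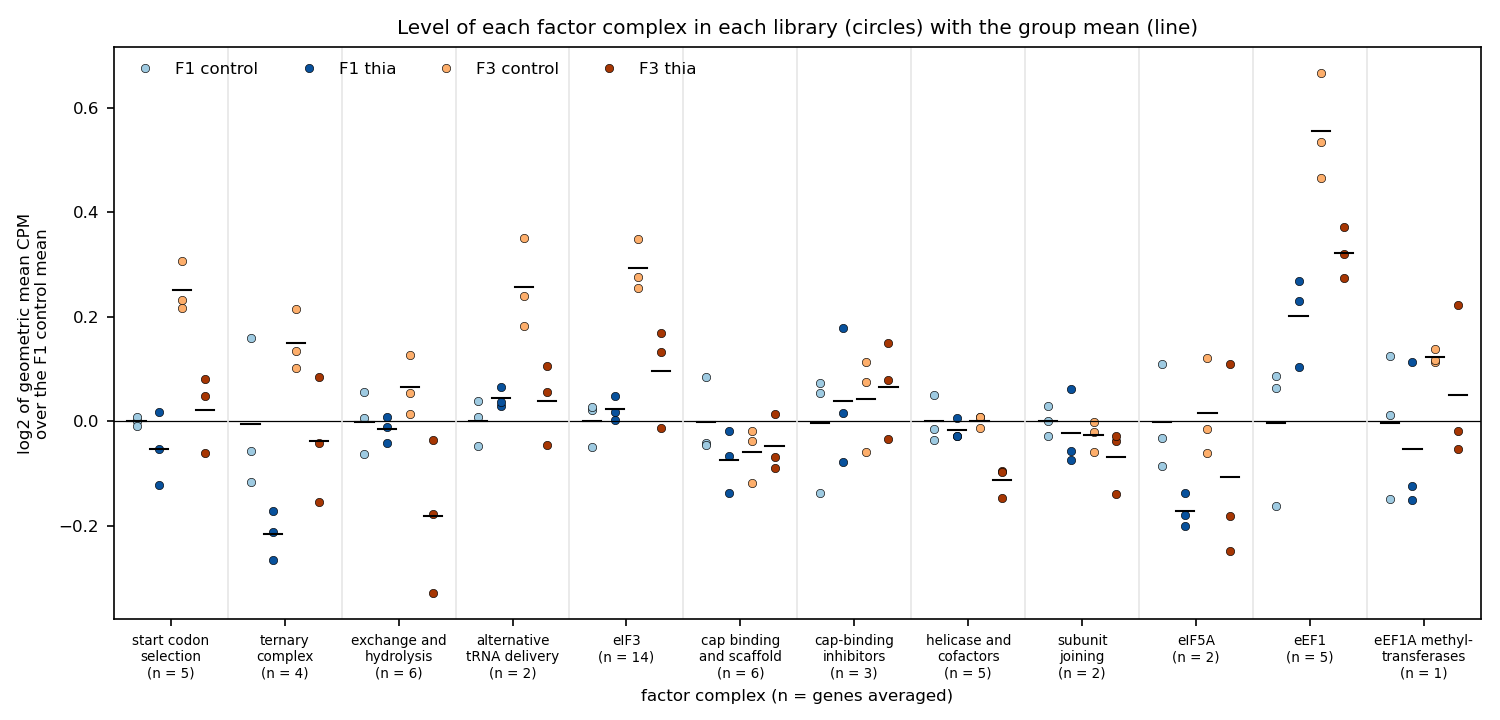
Log2 of the geometric mean CPM of each complex in each library (circles), relative to the mean of the F1 control libraries (y axis), with the group mean as a line and *Eif4e1b* and *Eif2c5* left out. In eEF1, eIF3, start codon selection and alternative tRNA delivery F3 control lies above the other groups, while cap binding, the cap-binding inhibitors and eIF5A overlap between F3 control and F3 thia.

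Other genes of translation were given by a list of 57, none of which passed an FDR of 0.1 in F3 in edgeR. DESeq2 called 7 of them lower and 4 higher (backgrounds 5.7% and 9.17%). Of the 57, 31 were below 0 at a median of -0.04, against 49.4% of all genes. At an unadjusted p under 0.05, 11 were lower (19.3%) and 6 higher (10.5%), where the backgrounds were 10.0% and 11.0%. The higher share was thus near that of all genes. *Eef2*, the translocation factor, read 4279, 3561 and 3757 CPM in F3 control and 3766, 4134 and 3557 in F3 thia and did not differ beyond its spread (-0.02 ± 0.10). Of the genes that modify eEF2 to carry diphthamide, *Dnajc24* read 21.2, 22.3 and 20.4 CPM in F3 control and 15.2, 16.5 and 16.4 in F3 thia (-0.41 ± 0.09, FDR = 0.105) and *Dph3* differed by -0.31 ± 0.07, FDR = 0.108. *Dhps*, which starts the hypusine of eIF5A, read 38, 31.9 and 39.4 CPM in F3 control and 26.8, 24.3 and 25.3 in F3 thia. The groups were well separated, at a log2 fold change of -0.52 ± 0.11, FDR = 0.105. The other of the 2 genes listed for hypusine synthesis was at -0.04 and not past an unadjusted p of 0.05.

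The 6 eIF2 alpha kinase and phosphatase genes were all above 0 in F3, at a median of 0.29. At an unadjusted p under 0.05, 3 were higher (background 11.0%). With the length trend removed 2 were (background 8.13%), and the median was 0.22. The kinase *Eif2ak2* (PKR) read 18.3, 21.5 and 21 CPM in F3 control and 26, 26.9 and 27.1 in F3 thia, without overlap (0.40 ± 0.09, FDR = 0.109). *Eif2ak3* (PERK) differed by 0.40 ± 0.11, FDR = 0.123. The targets of this stress response had a median of 0.04, with 1 of 6 higher at an unadjusted p under 0.05, *Sesn2* (0.32 ± 0.13, FDR = 0.216). *Rptor*, the mTORC1 subunit raptor, read 44.9, 48.3 and 45.3 CPM in F3 control and 59.7, 56.7 and 58 in F3 thia (0.33 ± 0.07, FDR = 0.105), and *Paip2*, an inhibitor of the poly(A)-binding protein, differed by -0.33 ± 0.08, FDR = 0.107. Of the reinitiation and release list, *Denr* and *Mcts1* differed by -0.30 ± 0.08 and -0.26 ± 0.08, and of the mitochondrial list *Mrrf* and *Mtif3* by -0.26 ± 0.10 and -0.31 ± 0.13.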

How the data were processed

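RNA-seq of 12 E15.5 testis libraries, 4 groups of 3, was analysed. The authors mapped paired-end reads to mm10 with HISAT2 2.1.0 and made the deposited raw counts per refGene symbol with featureCounts. How featureCounts treated the 2 reads of a pair is not given in the sources used here. Groups and replicate numbers come from the sample titles.

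From the counts, genes were filtered with filterByExpr (minimum count 10), scaled by TMM and compared with the quasi-likelihood test of edgeR 4.0.16 in R 4.3.3 (limma 3.58.1) with Benjamini-Hochberg adjustment over all genes tested, at an FDR of 0.15 in F1 and 0.1 otherwise. SE was derived from that test, and SD is over 3 libraries. The F1 and F3 comparisons used the 6 libraries of the generation, and the interaction and the control contrast all 12. DESeq2 1.42.0 was an alternative. Gene length was the longest GENCODE M21 transcript, found for 94.6% of genes tested in F3. Its trend in the log2 CPM of each library was fitted by loess (span 0.3) and entered as an offset in a new fit. Genes without a length were left uncorrected there. Start sequences came from RefSeq. The procedure was tested on simulated data. Python 3.11.15 and matplotlib 3.10.9 drew the figures.

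The members and lists were chosen with earlier results of these data known. The rule for naming members with values took, for each complex, the most abundant and those with the 2 smallest F3 p. It also took every member past an FDR threshold or with an unadjusted p under 0.001, the 3 smallest p in F1 and pairs of paralogs. Members outside this rule, among them *Eif3b*, *Eif3d* and *Eif4b*, are given with values too. Of other translation genes, *Eef2* and at most 2 per list are named, with *Pabpc1* and *Sesn2* added after their values were seen. Pools share no known litter label, so p-values measure the spread between pools. Depth was 25081647 to 68996146 counts, and intervals of single counts were not needed. Alternatives were other scalings and filters, DESeq2, a replicate block, length correction, 1 fit of all libraries, an FDR of 0.05, leaving out each library, and bias-adjusted deviances in edgeR, which were added after the data were seen.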

Additional observations from a re-analysis of the deposited data

How the results depend on the processing

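The members' median kept its sign in all 4 comparisons under every alternative tried. In F1 it was 0.02 where that of all genes was 0.009, so there the sign says little. It ran from 0.002 to 0.037 in F1, from -0.22 to -0.14 in F3, from -0.21 to -0.10 for the interaction and from 0.066 to 0.28 between the controls, and with 1 library left out from 0.0042 to 0.031, -0.23 to -0.15, -0.18 to -0.11 and 0.14 to 0.21. The number of members past the threshold in F3 did not hold, being 0 in edgeR, 11 by DESeq2, 3 under upper quartile scaling, 2 with no filter, 2 with at least 10 counts in every library, 12 in 1 fit of all libraries and 0 to 6 with 1 library left out, where the 6 came without F3 thia replicate 2. Over all genes these counts in F3 were 2262, 520, 569, 333, 1936 and 0 to 1294, and 81 with bias-adjusted deviances. In F1 DESeq2 and the unfiltered fit each called 1 member, *Eif2s3y*, among 193 and 243 genes, against 2 genes as reported, 0 in 1 fit of all libraries and 0 to 20 with 1 library left out (20 without F1 control replicate 1). For the interaction DESeq2 called 4 members among 638 genes, against 0 among 1 as reported, 0 genes with the length trend removed and 0 to 4 with 1 library left out, and the median was -0.21 under upper quartile scaling. Between the controls 21 to 30 members were called with 1 library left out, and the median was 0.28 under upper quartile scaling and 0.066 with the length trend removed. There *Eif3k*, *Eif3g* and *Eif1b* reversed to -0.12, -0.031 and -0.046 with the length trend removed. The cause of these shifts was not tested.

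The replicate numbers did not pair the libraries, since deviations of same-numbered libraries correlated at -0.043, -0.039 and 0.032 in F1 and at 0.195, -0.368 and -0.238 in F3, and not every library correlated best with its own number. With a replicate block the members past the threshold were 0 in F1, 0 in F3, 0 for the interaction and 27 between the controls, and the interaction called 0 genes. With the replicate block and the length trend removed together, 0 genes passed in F1 and 0 for the interaction, the median between the controls was 0.067, and *Eif3k*, *Eif3g* and *Eif1b* were at -0.11, -0.031 and -0.046.

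The smallest FDR over all genes in F3 was 0.101, just above the threshold. *Eif4e1b* and *Eif2c5* had too few counts for a statement. RNA levels say nothing of protein levels or translation.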

Other observations

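The balance between single factor RNAs is given here for pairs chosen after their values were seen, so without a test. The ratio of *Eif3h* to *Eif3a* in CPM was 2.39, 2.32 and 1.63 in the F1 control libraries, 3.0, 2.09 and 2.43 in F1 thia, 4.77, 3.56 and 3.05 in F3 control and 2.15, 2.22 and 2.24 in F3 thia. The F3 thia ratios lay within a narrow band inside the range of F1, and the F3 control ratios lay above all others. The longest transcripts are 1295 bases for *Eif3h* and 5125 for *Eif3a*, and the members' F3 values moved with length. The ratio of *Eif4g1* to *Eif4e* was 1.49, 1.78 and 1.71 in F3 control and 2.19, 2.45 and 2.23 in F3 thia, without overlap, where F1 control gave 2.46, 2.16 and 1.94. The ratio of *Eef1a1* to *Eef2* was 6.54, 7.10 and 6.30 in F3 control and 5.65, 4.95 and 5.71 in F3 thia, also without overlap. F1 control gave 5.74, 5.81 and 6.37 and F1 thia 6.46, 4.95 and 5.49, so both F1 groups reached into the range of F3 control. *Eif4a1* over *Eif4a2* overlapped between all groups, from 1.21 to 2.28 over the 12 libraries.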
